A study of Mus musculus with 9 samples.

Results

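The genes described here are 10 parts of the Notch signalling pathway, out of 38924 genes counted in cultured mouse cardiac fibroblasts. They are the receptors Notch1, Notch2 and Notch3, the ligands Jag1 and Dll1, the nuclear repressors Heyl, Hey1, Hey2 and Hes1, and the feedback regulator Nrarp. The genes were picked by symbol with their levels in all 9 libraries already known, so their levels and differences between groups are given as a description, with no p-values. All 10 symbols were found in the table, and 9 had enough counts to be fitted in the comparisons. Nrarp did not.

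The cells were primary cardiac fibroblasts of adult RosaCas9-EGFP mice, 8 to 10 weeks old, on a C57BL/6 background. All 3 groups therefore expressed Cas9 with EGFP, and all were sorted as CD45-, CD31- and CD90+ cells after 3 days of culture. After 6 more days, guide RNAs were delivered by lipid transfection. The control group received scrambled guides, Gata4 KD received 2 guides against Gata4, and Tbx20 KD received 2 guides against Tbx20, with 3 libraries, named a, b and c, in each group. The cells were transfected cultures and not clones, so edited and unedited cells were read together. Gata4 and Tbx20 encode transcription factors of the developing heart. The study describes 3 biological replicates per condition. Neither it nor the labels say whether the libraries of a group came from separate animals or cultures. The p-values below therefore measure only the spread between these libraries.

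Notch receptors are read out by contact between cells. A ligand of the Jagged or Delta-like family on a neighbouring cell binds the receptor, which is then cut by an ADAM protease and by the gamma-secretase complex. The freed intracellular domain enters the nucleus, joins the DNA-binding protein RBPJ and a Mastermind coactivator, and switches on target genes. Hes and Hey genes are the best known of these targets and encode repressors of the basic helix-loop-helix class. Nrarp encodes a small protein that is itself induced by Notch and dampens it. In the heart the pathway is known for its part in valve, coronary vessel and trabecular development, and NOTCH3 with HEYL is best known from the mural cells of vessels.

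The libraries held 31214828 to 41950397 counts (median 36270725). The transcript of each target was below control in every library that received its guides. Gata4 stood at 164, 156 and 166 CPM (the usual count unit scaled to library size) in control a, b and c, and at 53.7, 47.2 and 65.2 CPM in Gata4 KD a, b and c. Tbx20 stood at 1001, 1288 and 714 CPM in control and at 321, 427 and 429 CPM in Tbx20 KD. By edgeR's quasi-likelihood test, adjusted over all genes, the adjusted p was 0.00272 for Gata4 and 0.748 for Tbx20, so the second did not pass. In Gata4 KD, Tbx20 was at 670, 518 and 904 CPM. Library c of Gata4 KD stood apart from a and b of its group in several Notch genes, and it also kept the most Gata4 and Tbx20 transcript of the 3. Its Gata4 was still below every control, and whether these features are linked was not tested. Values without library c are given beside the results that rest on it. Library a of Tbx20 KD stood apart from b and c for Heyl.

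The sequences ahead of the start sites are shown for 3 members. Jag1 and Notch3 are shown because their levels moved with Heyl across the libraries, and Hey2 because its promoter was the only member promoter found to hold the letters bound by RBPJ. Promoter windows (RefSeq, build GRCm38.p6, from 250 bases before to 50 bases after a start) were given for 7 members in 8 windows, and there was none for Heyl, Hey1 or Hes1. The letters searched, on both strands, were TGGGAA for RBPJ, CACGTG for the E-box that basic helix-loop-helix proteins recognise, AGATAA for GATA factors and AGGTGT for T-box factors. Each stretch below is on the minus strand, written 5′ to 3′, and ends before any annotated exon. Capitals mark a match to the RBPJ letters, on the reverse strand.
Jag1, chr2:137116645-137116770: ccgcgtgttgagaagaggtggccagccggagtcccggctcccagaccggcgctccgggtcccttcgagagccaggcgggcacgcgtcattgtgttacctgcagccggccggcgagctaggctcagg
Notch3, chr17:32166891-32167140: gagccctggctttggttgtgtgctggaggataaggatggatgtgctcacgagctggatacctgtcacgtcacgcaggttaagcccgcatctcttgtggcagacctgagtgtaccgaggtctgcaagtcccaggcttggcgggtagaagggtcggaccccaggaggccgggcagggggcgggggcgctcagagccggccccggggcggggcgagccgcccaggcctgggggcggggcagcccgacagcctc
Hey2, chr10:30842802-30843033: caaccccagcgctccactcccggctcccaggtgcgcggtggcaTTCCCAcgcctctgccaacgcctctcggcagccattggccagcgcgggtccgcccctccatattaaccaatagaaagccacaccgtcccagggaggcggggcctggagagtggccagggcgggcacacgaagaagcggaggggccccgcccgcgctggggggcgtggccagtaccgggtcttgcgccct
The Hey2 window held 2 matches to the RBPJ letters, the printed one and another that spans the RefSeq start. The Nrarp window held 1 match to the E-box. No window of Notch1, Notch2, Notch3, Jag1 or Dll1 held any of the 4 motifs, and no member window held the GATA or T-box letters. Of 32851 promoter windows of the same length, 25.6% held the RBPJ letters, 7.15% the E-box, 11.2% the GATA letters and 13.7% the T-box letters. A match is a string of letters and says nothing of binding.

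Levels of the 10 members were set side by side. To compare genes, CPM was divided by the length of each gene's merged exons in kilobases. In control, Notch2 was the highest of the 3 receptors at 23.0 ± 0.483 CPM per kb (SD, n = 3), followed by Notch1 at 3.66 ± 0.344 and Notch3 at 3.01 ± 0.58. Jag1, a ligand of the Jagged family, stood at 20.3 ± 2.61 CPM per kb (SD, n = 3), and the ligand Dll1 at 0.456 ± 0.0459. Hes1 was the highest of the 4 nuclear repressors at 10.2 ± 1.78 CPM per kb (SD, n = 3). It was followed by Heyl at 1.38 ± 0.346, Hey2 at 0.29 ± 0.0638 and Hey1 at 0.119 ± 0.0236. In this order of levels, the 3 control libraries of Notch2 overlapped those of Jag1, and those of Notch1 overlapped those of Notch3. All other neighbours in the order were apart. The order and the overlaps, here and in the knockdowns, hold for merged exons, which span 14232 bases in Notch1. With the longest transcript as length, 9488 bases in Notch1, Notch1 and Notch3 would be apart in control and Dll1 and Hey2 would overlap. Genes outside the 10 fell between them, among them the receptor Notch4 at 3.1 ± 0.105 CPM per kb (SD, n = 3) and Hes6 at 3.32 ± 0.761.

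The order shifted at a few places in the knockdowns. In Gata4 KD, Jag1 was at 12.7 ± 4.06 CPM per kb (SD, n = 3), below every library of Notch2 and overlapping Hes1. Heyl, at 0.586 ± 0.519 CPM per kb (SD, n = 3), took the place below Dll1, with overlap. That mean rests on library c. Without it, an alternative chosen after the values were seen, Heyl averaged 0.29 CPM per kb and came below Hey2, at 0.321, again with overlap. In Tbx20 KD, Heyl stood at 2.41 ± 1.13 CPM per kb (SD, n = 3) and overlapped Notch3. Notch2 and Jag1 were level at 22.8 CPM per kb in Tbx20 KD, and in Gata4 KD Notch2 was above every other member.

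**Figure D1:**
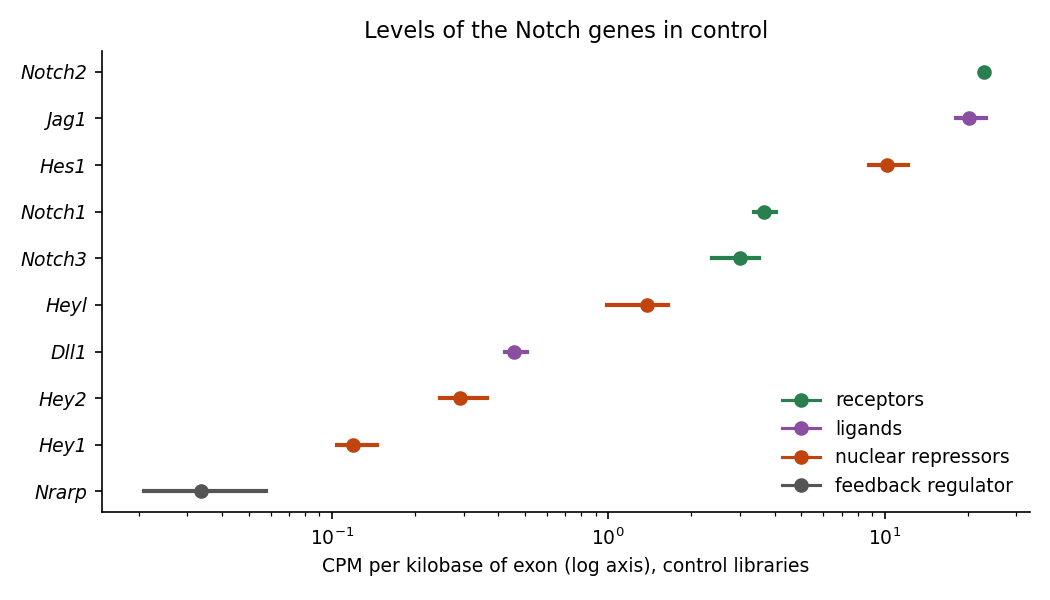
Level of each gene in the 3 control libraries, in CPM per kilobase of exon on a log axis. Points are means, lines run from the lowest to the highest library, and colours give the role. Notch2 and Jag1 are at the top at 23.0 and 20.3, and Nrarp is at the bottom at 0.0335.

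Among the receptors, Notch1 and Notch2 varied little between libraries and Notch3 varied more. Notch1 was measured at 57.5, 47.9 and 50.9 CPM in control a, b and c, at 51.4, 51.6 and 57.2 CPM in Gata4 KD, and at 52.3, 50.1 and 53.2 CPM in Tbx20 KD. The 3 groups overlapped. Its log2 fold change was 0.03 ± 0.10 (SE) in Gata4 KD and 0.00 ± 0.08 (SE) in Tbx20 KD, both against control.

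Notch2, the most abundant receptor here, was at 254, 246 and 245 CPM in control, at 251, 277 and 309 CPM in Gata4 KD, and at 232, 245 and 263 CPM in Tbx20 KD. Library c of Gata4 KD was the highest of all 9, and the groups overlapped. Against control it had a log2 fold change of 0.17 ± 0.09 (SE) in Gata4 KD and -0.01 ± 0.07 (SE) in Tbx20 KD.

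Notch3 (ENSMUSG00000038146) is a minus-strand gene at chr17:32120820-32166852 in GRCm38. It was at 25.5, 28.4 and 19.2 CPM in control a, b and c. In Gata4 KD it was at 13.8 and 11 CPM in a and b, below all controls, and at 27.7 CPM in c, inside the control range. In Tbx20 KD it was at 21.6, 30.6 and 31.1 CPM, with b and c above all controls. Its difference from control, as log2, was -0.48 ± 0.32 (SE) in Gata4 KD, -0.96 without library c, and 0.19 ± 0.18 (SE) in Tbx20 KD.

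Of the ligands, Jag1 was lower in every Gata4 KD library than in any control. It was at 115, 135 and 105 CPM in control a, b and c. In Gata4 KD it was at 61.3, 59.3 and 101 CPM, so that libraries a and b were far below the controls and c was just under the lowest control. In Tbx20 KD it was at 119, 141 and 139 CPM, overlapping the controls. Jag1 (ENSMUSG00000027276) is a minus-strand gene at chr2:137081456-137116644 in GRCm38. Mean Jag1 CPM in Gata4 KD was 0.625 times that in control, a log2 fold change of -0.68 ± 0.20 (SE), and -0.95 without library c. In Tbx20 KD the log2 fold change was 0.17 ± 0.11 (SE).

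Dll1, a ligand of the Delta-like family, was low throughout, at 60 to 100 counts per library. It was at 1.83, 2.15 and 1.79 CPM in control, at 2.07, 2.78 and 2.61 CPM in Gata4 KD, and at 1.42, 2.79 and 2.11 CPM in Tbx20 KD. The groups overlapped, with log2 fold changes of 0.37 ± 0.19 (SE) in Gata4 KD and 0.13 ± 0.26 (SE) in Tbx20 KD.

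Heyl, a repressor of the Hey family, showed the widest range of the fitted members. The gene (ENSMUSG00000032744) is on the plus strand at chr4:123233556-123249875 in GRCm38. It was at 7.74, 8.39 and 5.05 CPM in control a, b and c. In Gata4 KD it was at 1.88 and 1.08 CPM in a and b, which are 60 and 39 counts, and at 6.03 CPM in c, inside the control range. In Tbx20 KD it was at 5.74 CPM in a, inside the control range, and at 14.5 and 16.7 CPM in b and c, above all controls.

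Mean Heyl CPM in Gata4 KD was 0.425 times that in control, and in Tbx20 KD it was 1.74 times that in control. The log2 fold changes were -1.23 ± 0.53 (SE) and 0.80 ± 0.36 (SE). Without library c of Gata4 KD the first was -2.24, and without library a of Tbx20 KD the second was 1.15. Within each group the 3 libraries had the same order for Heyl as for Notch3 and for Tbx20, with control c, Gata4 KD b and Tbx20 KD a the lowest. That order was not particular to these genes. Among the fibroblast markers read below, Col1a2 and Col3a1 had it too, while Col1a1, Thy1 and Ddr2 did not. Whether the order is tied to the level of Tbx20 was not tested.

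The other repressors did not follow Heyl. Hey1 was near the limit of detection, at 0.351, 0.339 and 0.478 CPM in control, 0.47, 0.556 and 0.688 CPM in Gata4 KD, and 0.379, 0.188 and 0.248 CPM in Tbx20 KD. These are 6 to 25 counts per library. Every Gata4 KD library was above every Tbx20 KD library, and each knockdown overlapped the controls. Against control the log2 fold change was 0.55 ± 0.31 (SE) in Gata4 KD and -0.48 ± 0.37 (SE) in Tbx20 KD, the opposite signs to those of Heyl.

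Hey2 was at 1.19, 1.67 and 1.14 CPM in control, at 1.54, 1.42 and 1.68 CPM in Gata4 KD, and at 1.73, 1.51 and 2.09 CPM in Tbx20 KD. The groups overlapped, with log2 fold changes of 0.21 ± 0.23 (SE) and 0.42 ± 0.23 (SE) against control.

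Hes1, the most abundant repressor and a widely used Notch readout, was at 17.9, 24.9 and 19.8 CPM in control and at 20, 18.1 and 22.8 CPM in Gata4 KD. In Tbx20 KD it was at 18.4, 17.6 and 17.8 CPM, within a narrow span that reached into the control range. Its log2 fold change was -0.04 ± 0.14 (SE) in Gata4 KD and -0.21 ± 0.12 (SE) in Tbx20 KD.

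Nrarp was barely detected, at 0 to 5 counts per library and 18 counts over all 9. A floor of 3 counts is 0.0942 CPM in the shallowest library, and control c, at 0.149 CPM, was the only library above it. No difference in Nrarp could be measured at this depth.

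**Figure D2:**
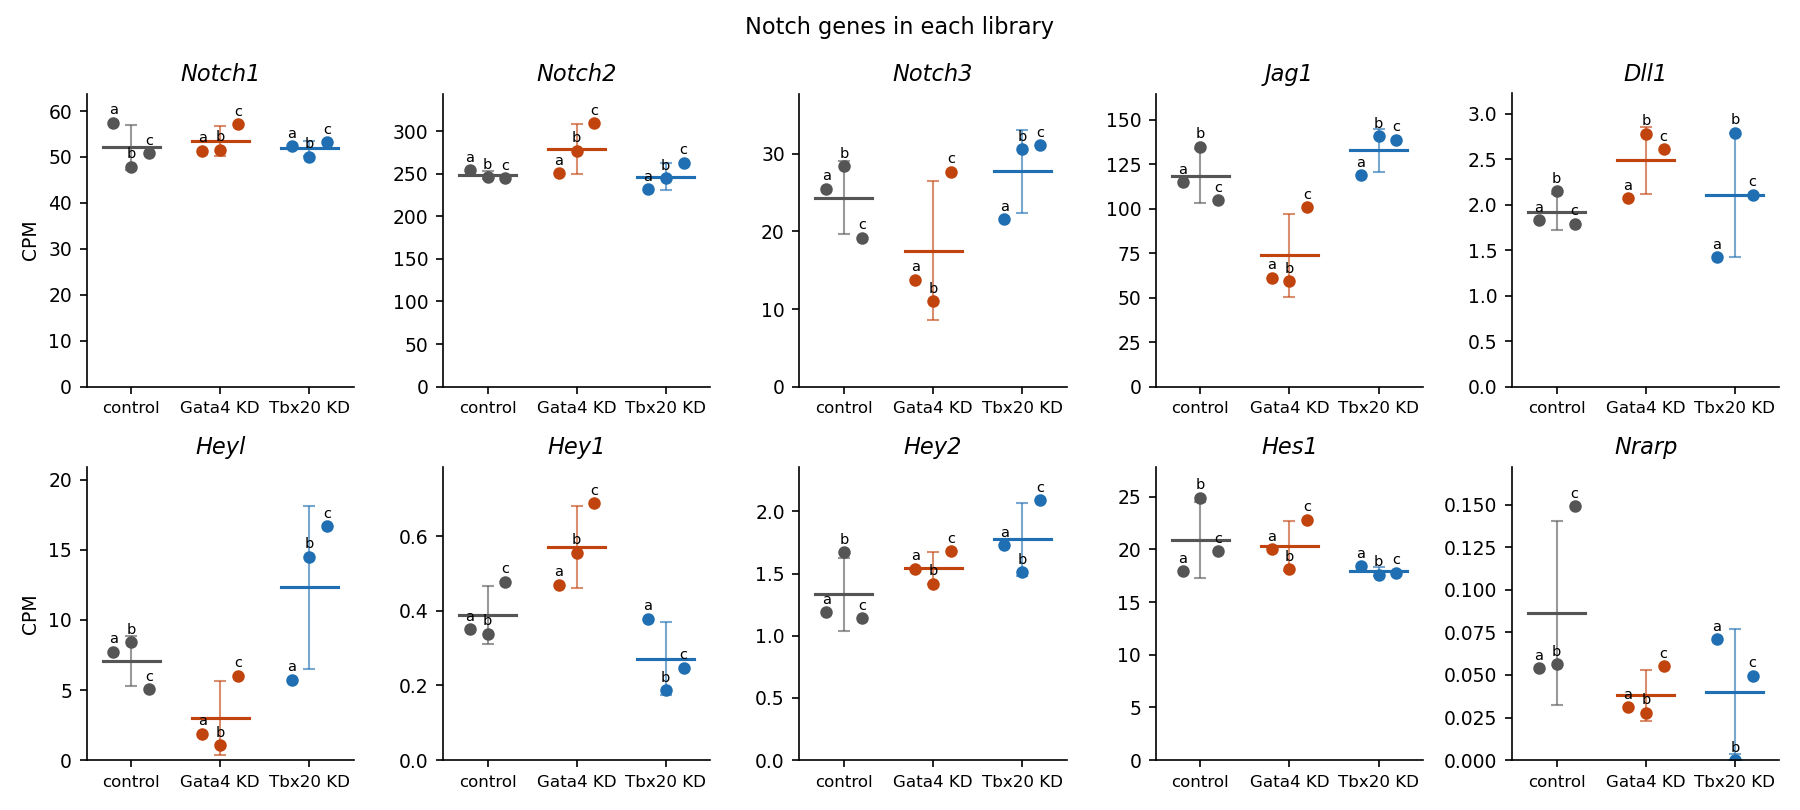
CPM of each gene in each library, on linear axes that start at 0. Points are libraries a, b and c, horizontal lines are group means and error bars are SD (n = 3). Gata4 KD a and b are low for Notch3, Jag1 and Heyl, while Gata4 KD c lies near the controls, at 27.7, 101 and 6.03 CPM.

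How many of these genes passed the test in each comparison was counted beside the share of all genes that did. An adjusted p under 0.05 in edgeR's quasi-likelihood test over all genes was the threshold. In Gata4 KD against control, 0 of the 9 fitted members passed, beside 0.38% of 14468 genes. At an unadjusted p under 0.05 there were 2 members, Jag1 and Heyl, both lower, beside 8.54% of genes, and 1 member, Jag1, had groups that did not overlap, beside 14% of genes. DESeq2, edgeR's exact test and limma-voom also gave 0 members. The members were chosen with these values known, so nothing is read from the counts. Without library c of Gata4 KD, 2 members passed, Jag1 and Heyl, beside 0.553% of 14660 genes. That library was set aside after the values were seen, and leaving out any other library gave 0 members.

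In Tbx20 KD against control, 0 of 9 members passed, beside 0.00687% of 14547 genes. At an unadjusted p under 0.05 there were 0 members beside 2.69% of genes, and 0 members had groups that did not overlap beside 6.96%. DESeq2, the exact test and limma-voom gave 0 members as well. Both knockdowns were compared with the same 3 control libraries, so their 2 sets of values are not independent.

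The knockdowns were also compared directly, without the controls. Heyl was lower in Gata4 KD than in Tbx20 KD by a log2 fold change of -2.02 ± 0.63 (SE), a mean CPM 0.243 times as high. Library c of Gata4 KD, at 6.03 CPM, lay just above library a of Tbx20 KD, at 5.74 CPM, so the groups overlapped by that pair alone. Jag1 differed by -0.84 ± 0.20 (SE) and Hey1 by 1.04 ± 0.33 (SE), each without overlap between the groups. Notch3 differed by -0.66 ± 0.33 (SE), with overlap.

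The remaining members differed by less in the direct comparison. In log2 units the difference was 0.18 ± 0.09 (SE) for Notch2 and 0.18 ± 0.09 (SE) for Hes1. It was 0.25 ± 0.26 (SE) for Dll1, -0.20 ± 0.19 (SE) for Hey2 and 0.04 ± 0.06 (SE) for Notch1. All 5 had groups that overlapped.

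In the direct comparison 0 of 9 members passed the threshold in edgeR's quasi-likelihood test, beside 1.44% of 14477 genes. At an unadjusted p under 0.05 there were 3 members, Jag1, Heyl and Hey1, beside 16.7% of genes, and 2 members, Jag1 and Hey1, did not overlap, beside 23.1%. DESeq2 called 1 member, Jag1, beside 5.26% of genes. The exact test called 2, Jag1 and Heyl, beside 5.04%, and limma-voom called 0. Without library c of Gata4 KD, 3 members passed, Notch3, Jag1 and Heyl, at log2 fold changes of -1.17, -1.15 and -3.07, beside 5.47% of 14656 genes. Library c was singled out because it stood apart in these same genes, so nothing is read from that count. Leaving out any other library gave 0 members.

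The median size of the log2 fold change, sign left out, was 0.37 over the 9 members in Gata4 KD against control, where it was 0.112 over all genes. It was 0.19 beside 0.076 in Tbx20 KD against control, and 0.25 beside 0.108 in the direct comparison. The members were listed with these values known and some, such as Hey1, had few counts, so nothing is read from these sizes. With sign, the members' medians were 0.03, 0.13 and 0.04, so the members did not share a direction. In Gata4 KD against control 5 were higher and 4 lower, and the same numbers held in each of the other comparisons.

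**Figure D3:**
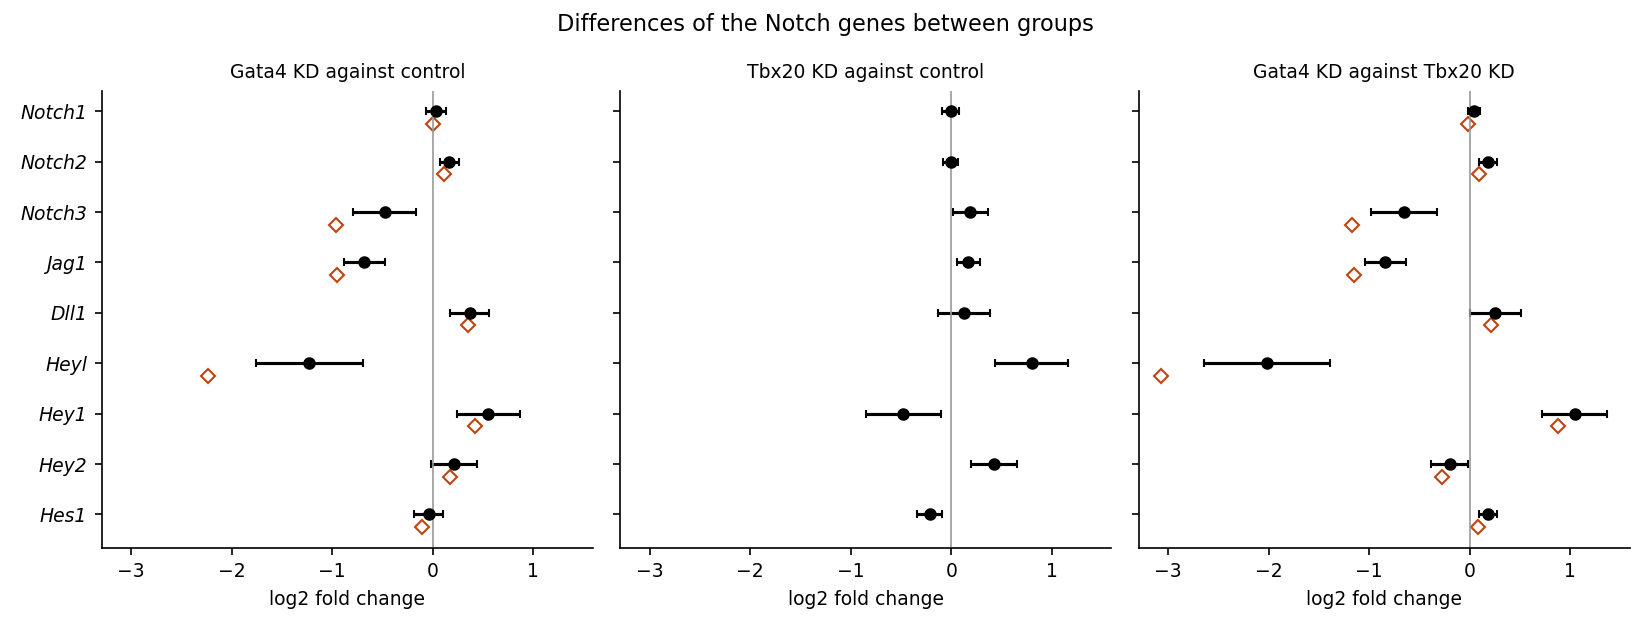
log2 fold change of 9 Notch genes in the 3 comparisons. Black points are edgeR estimates with SE from 6 libraries, and open diamonds are the estimates without Gata4 KD library c. Heyl lies at -1.23, 0.80 and -2.02, while Notch1 lies within 0.05 of 0 in all 3.

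Notch3, Jag1 and Heyl varied together from library to library. Over the 9 libraries, log2 CPM of Heyl and Notch3 had a Pearson r of 0.97 and a Spearman rho of 0.98, and r was 0.83 without the 2 libraries farthest from the median. Heyl and Jag1 had an r of 0.96 and a rho of 0.90, with 0.86 without the 2 farthest. Notch3 and Jag1 had an r of 0.94 and a rho of 0.87, with 0.65 without the 2 farthest. After the group means were taken away, the 3 correlations were 0.97, 0.92 and 0.97, so the genes also moved together among libraries of the same group. These are descriptions of 9 libraries that share groups and culture conditions.

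Hes1 did not follow these genes between groups. Its r was -0.03 with Heyl, 0.16 with Notch3 and 0.04 with Jag1 over the same libraries. Notch1 had an r of 0.06 and Notch2 of -0.20 with Heyl. After the group means were taken away, Hes1 had an r of 0.46 with Heyl, 0.57 with Notch3 and 0.67 with Jag1. Notch2 then had an r of 0.73 with Heyl, 0.72 with Notch3 and 0.75 with Jag1, and Notch1 of 0.39 with Heyl.

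**Figure D4:**
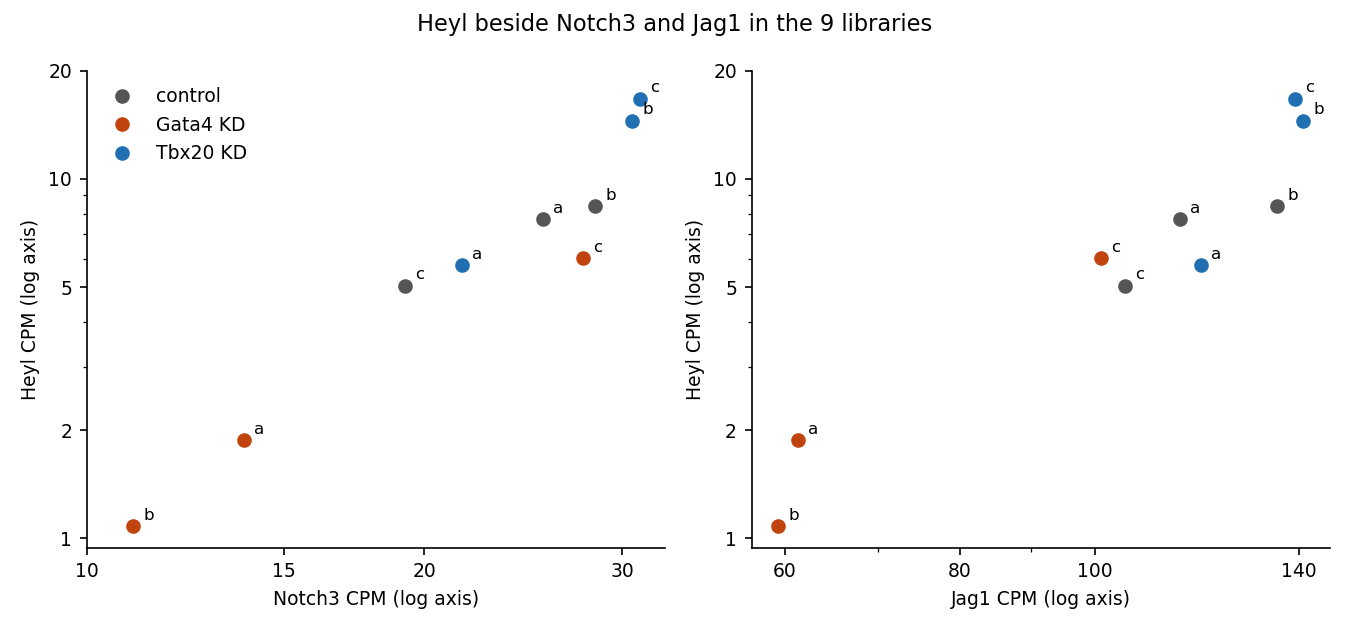
CPM of Heyl against CPM of Notch3 (left) and Jag1 (right) in the 9 libraries, on log axes. Colours give the group and letters the library. Gata4 KD a and b sit at the lower left with Heyl at 1.88 and 1.08 CPM, and Tbx20 KD b and c at the upper right with 14.5 and 16.7 CPM.

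Many genes outside the pathway shared the library pattern of Heyl. Among 10043 genes with a mean of at least 5 CPM, the 5 with the highest Pearson r with Heyl over the 9 libraries were Prag1 at 0.996, Cercam at 0.993, Zfp651 at 0.990, Rab3il1 at 0.986 and Mvp, the major vault protein, at 0.986. Rab3il1, for example, was at 12.1, 13.4 and 10.0 CPM in control, 5.55, 4.72 and 11.8 CPM in Gata4 KD, and 8.85, 17.0 and 17.7 CPM in Tbx20 KD. In this ranking Notch3 was 38, Jag1 was 47, Notch1 was 4520, Hes1 was 5103 and Notch2 was 6260.

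Markers of other cell types were read beside these values. All 10 fibroblast markers were at 1 CPM or more on average, with Col1a1 at 3949 to 4033 CPM in control. Some of them were low in the same libraries as Heyl. Col3a1, a fibrillar collagen, was at 1837 and 1622 CPM in Gata4 KD a and b, at 3188 CPM in c and at 2671 to 3628 CPM in control. Col1a1 and Col1a2 were likewise lowest in Gata4 KD a and b. Pdgfra, Thy1 and Ddr2 did not follow this pattern, with Pdgfra at 560, 517 and 664 CPM in Gata4 KD and 381 to 529 CPM in control. The summed level of the 10 fibroblast markers was 12046 to 14615 CPM in control, 8793 to 13331 in Gata4 KD and 11800 to 15056 in Tbx20 KD, and 7 of the 10 had a lower mean in Gata4 KD than in control. Vessel mural cells, where Notch3 and Heyl are best known, are marked by a list of which 9 genes besides Notch3 were summed. That sum was 333 to 379 CPM in control, 356 to 556 in Gata4 KD and 319 to 396 in Tbx20 KD, of which Pdgfrb, which fibroblasts also express, made up 80.3% to 87.8%. Most of the rest was Mcam, at 47.3 to 61.3 CPM. In each knockdown 5 of these 9 genes had a mean above control and 4 below. Rgs5 was at 4.67, 4.06 and 6.3 CPM in Gata4 KD, above all controls at 1.88 to 3.45 CPM, and Cspg4 was at 2.01 to 4.37 CPM over all libraries. Kcnj8, Vtn and Higd1b were at or near 0, with 0.0598 CPM the most in any library. Pdgfrb was highest in Gata4 KD c, at 489 CPM, beside 355 and 291 CPM in a and b.

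The 9 smooth muscle markers summed to 1430 to 1714 CPM in control, 1640 to 1966 in Gata4 KD and 1354 to 1581 in Tbx20 KD. Most of that sum was Acta2, at 876 to 1263 CPM over all libraries, and Tagln, at 357 to 565 CPM. In Gata4 KD 4 of the 9 markers had a mean above control and 5 below, and in Tbx20 KD 2 above and 7 below. The 10 endothelial markers summed to 46.7 to 66.9 CPM in control, 47.8 to 66.4 in Gata4 KD and 50.9 to 64 in Tbx20 KD. Of these, Tek, the angiopoietin receptor, moved with Heyl, at 16.5, 16.3 and 33.3 CPM in Gata4 KD a, b and c. Pecam1, a defining endothelial gene, did not, at 8.62, 9.31 and 6.96 CPM. In control Tek was at 20.5 to 36 CPM and Pecam1 at 3.05 to 7.83 CPM. In Gata4 KD 6 of the 10 endothelial markers had a mean above control and 4 below, and in Tbx20 KD 9 above and 1 below. Leukocyte markers summed to 41 to 47.7 CPM in control, 26 to 43.1 in Gata4 KD and 39.2 to 57 in Tbx20 KD, with Cd3e at 0 in all 9 libraries. Cardiomyocyte markers summed to 24.6 to 31.3 CPM in control, 8.98 to 9.99 in Gata4 KD and 22 to 27.3 in Tbx20 KD, with Pln at 0 in all 9. Nearly all of that sum was Tnnt2, at 29.9, 23.9 and 23.1 CPM in control and 8.84, 7.73 and 8.26 CPM in Gata4 KD, and in Gata4 KD 5 of the 10 markers had a mean above control and 4 below. Mesothelial markers summed to between 94.7 and 156 CPM and glial markers to between 4.86 and 8.42 CPM, with overlap between all groups. In Gata4 KD 3 of the 7 mesothelial markers had a mean above control and 4 below, and most of the sum was Aldh1a2. Lrrn4 was at 2.73, 2.11 and 2.31 CPM in Gata4 KD and 15.8 to 32.2 CPM in control. Upk3b and Upk1b were also below every control, at 0.611 to 1.1 and 1.32 to 1.72 CPM in Gata4 KD. In control they were at 1.64 to 3.88 and 2.15 to 4.37 CPM. Aldh1a2 was at 110, 79.6 and 147 CPM in Gata4 KD and 55.1 to 78.3 CPM in control. In bulk libraries fewer cells of a type and less RNA per cell cannot be told apart, and the part of cell makeup in the Notch values was not tested.

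The other genes of the pathway were described from a list of 47, of which 37 had enough counts to be fitted. The list was chosen with earlier results of these data known, so nothing is read from the counts below. In edgeR's quasi-likelihood test 0 of 37 passed in Gata4 KD against control, with 4 at an unadjusted p under 0.05. In Tbx20 KD against control 0 passed, with 2 at an unadjusted p under 0.05. In both of these comparisons DESeq2, the exact test and limma-voom also called 0. In Gata4 KD against Tbx20 KD 1 passed, Kat2b, which was lower in Gata4 KD, and 10 had an unadjusted p under 0.05. Without library c of Gata4 KD, 4 passed in that comparison, Psen2, Dtx4, Rbpj and Kat2b, beside 5.47% of all genes. Leaving out any other library gave 0 in that comparison. DESeq2 and the exact test called the same 4 with all 6 libraries, beside 5.26% and 5.04% of all genes. The quasi-likelihood fits with all 6 libraries had the shares over all genes given above for the members. The median log2 fold change over the 37 was 0.01 in each comparison, beside -0.017, -0.002 and -0.006 over all genes.

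Kat2b, an acetyltransferase that joins the Notch transcription complex, was at 72, 77.8 and 79.8 CPM in Gata4 KD a, b and c and at 94.7, 97.5 and 97.3 CPM in Tbx20 KD. Control, at 76.9, 96.5 and 72.5 CPM, spanned both. The log2 fold change between the knockdowns was -0.33 ± 0.05 (SE), with an adjusted p of 0.0333 in edgeR's quasi-likelihood test. Leaving out Gata4 KD c kept the call, at an adjusted p of 0.0144, while leaving out any of the other 5 libraries ended it, at 0.0782 to 0.171, as did edgeR with all 9 libraries in 1 fit, at 0.149.

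In the nuclear complex, Rbpj, the DNA-binding partner of the cut receptor, was at 251, 307 and 245 CPM in control, 366, 409 and 286 CPM in Gata4 KD and 297, 234 and 246 CPM in Tbx20 KD. Libraries a and b of Gata4 KD were above all others and c was inside the control range. The log2 fold change in Gata4 KD was 0.40 ± 0.14 (SE), with an adjusted p of 0.444 by edgeR's quasi-likelihood test. Without library c it was 0.55, with an adjusted p of 0.134 by that edgeR test. Against Tbx20 KD the log2 fold change of Rbpj was 0.45, with an adjusted p of 0.17, and 0.58 without library c, with an adjusted p of 0.0233, both by edgeR. The corepressor Ctbp1 was at 106 to 117 CPM in Gata4 KD and at 118 to 132 CPM in Tbx20 KD. The direct log2 fold change of -0.17 ± 0.07 (SE) had an adjusted p of 0.257 by the same edgeR test.

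In the cleavage machinery, Psen2, a catalytic subunit of gamma-secretase, was at 25.7, 21.6 and 28.5 CPM in control, 19.6, 18.5 and 18.8 CPM in Gata4 KD and 25.9, 23.7 and 23.6 CPM in Tbx20 KD. Here library c of Gata4 KD lay with a and b, unlike Heyl, and the group was below every other library. The log2 fold change was -0.42 ± 0.12 (SE) against control, with an adjusted p of 0.282, and -0.36 ± 0.07 (SE) against Tbx20 KD, with an adjusted p of 0.0517, both by edgeR's quasi-likelihood test. Psen2 passed against Tbx20 KD under DESeq2, library size alone, no filter, the CPM filter and the exact test (adjusted p of 0.00207 to 0.0445). It did not pass under limma-voom (0.0547), with all 9 libraries in 1 edgeR fit (0.152) or with the replicate letter as a block in edgeR (0.0827). By edgeR it passed without Gata4 KD c, at an adjusted p of 0.0376. When any other library was left out it did not pass by edgeR, at 0.111 to 0.189. The protease Adam10 and the gamma-secretase subunit Ncstn, the most abundant of this role per kilobase, had log2 fold changes between -0.02 and 0.03 in all 3 comparisons.

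Of the genes for trafficking and turnover, Dtx4, an E3 ubiquitin ligase of the Deltex family, was at 32.8, 32.1 and 26.4 CPM in control, 20.3, 19.5 and 26.9 CPM in Gata4 KD and 29.0, 38.3 and 33.7 CPM in Tbx20 KD. Library c of Gata4 KD again lay with the controls. The log2 fold change of Dtx4 was -0.46 against control and -0.59 against Tbx20 KD, with adjusted p of 0.379 and 0.11 by edgeR's quasi-likelihood test. Without library c these were -0.60 and -0.76, with adjusted p of 0.114 and 0.0177 by edgeR. Mib1, the ligase that drives ligand endocytosis, was at 177 to 196 CPM in Gata4 KD and 165 to 174 CPM in Tbx20 KD, with an adjusted p of 0.29 between them by the same edgeR test. Numb, an inhibitor of Notch, was at 45.8 to 49.8 CPM in all 9 libraries.

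Among the glycosylation genes, Pofut1 and Poglut1, which add sugars that the receptors need, had log2 fold changes between -0.12 and 0.10. The fringe enzyme Rfng was at 9.75 to 11.1 CPM in control and 11.7 to 12.3 CPM in Tbx20 KD, a log2 fold change of 0.22 ± 0.09 (SE) with an adjusted p of 1 by edgeR's quasi-likelihood test. The receptor Notch4 was at 24.5 to 26 CPM in control and 17.9 to 22.3 CPM in Tbx20 KD, without overlap. Its log2 fold change of -0.31 ± 0.10 (SE) also had an adjusted p of 1 by that edgeR test. Of the ligand-like gene Dlk2 there was 0.495 to 1.23 CPM, and its log2 fold changes lay between -0.18 and 0.06. Hes6, the only other Hes gene that could be fitted, was at 4.41 to 6.8 CPM, and Hes7 was at 0.0248 to 0.166 CPM and was not fitted.

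**Figure D5:**
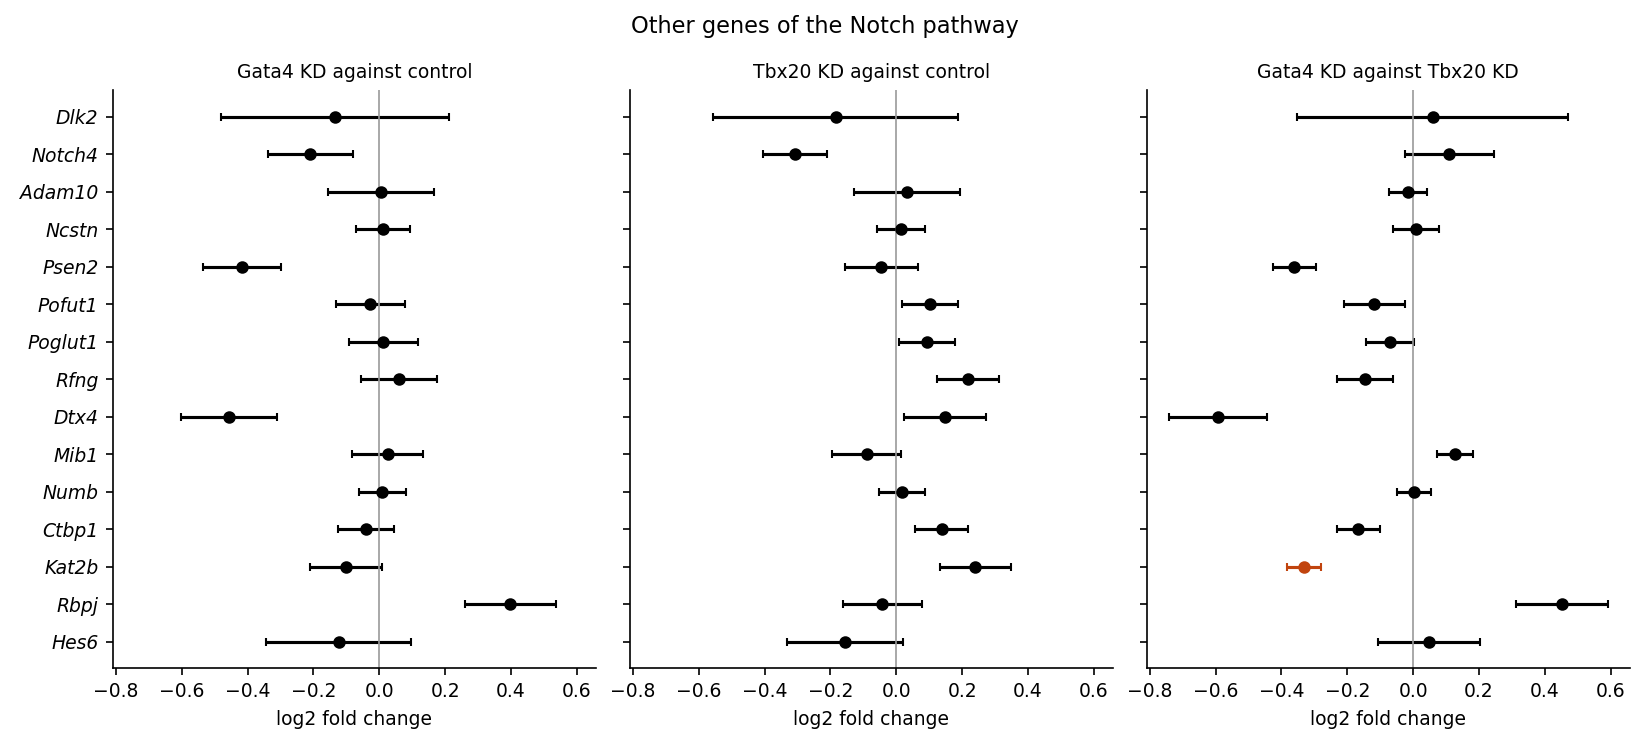
log2 fold change with SE of 15 other pathway genes in the 3 comparisons, from 6 libraries each. Red marks an adjusted p under 0.05, which Kat2b alone reached, at -0.33 in Gata4 KD against Tbx20 KD. Psen2 and Dtx4 lie below 0 and Rbpj above 0 in both comparisons with Gata4 KD.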

How the data were processed

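RNA of 9 libraries was read as 75 base single-end reads. The authors estimated gene abundance with RSEM and deposited unnormalized expected counts, which are whole numbers in the table. The submitters' processing notes name mm9 and Bowtie, while the study's methods name GRCm38 and Bowtie2. The table holds no coordinates, so positions and exon lengths come from GENCODE M21 on GRCm38. RSEM splits shared reads between genes, but no member shared a 75 base window with another gene. Of the pathway genes named above, Rbpj shared 8.91% of its windows with other genes and Kat2b 3.12%, and the rest shared none.

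Following the study's choice of package, edgeR 4.0.16 in R 4.3.3 was fitted to the 6 libraries of each comparison (filterByExpr, TMM factors, quasi-likelihood F test, Benjamini-Hochberg over all genes, threshold 0.05, no covariate). SE is the log2 fold change divided by the root of F. CPM was scaled over all 9 libraries. Correlations used log2 CPM with a prior count of 2. Alternatives were DESeq2 1.42.0, library size alone, no filter, CPM above 1 in at least 2 libraries, the exact test, limma-voom (limma 3.58.1), all 9 libraries in 1 fit, the replicate letter as a block, and leaving out each library. The labels name no batch. The study lists Heyl among genes that the knockdowns changed in opposite directions, raised in Tbx20 KD. In the main fits here Heyl did not pass the threshold against control in either knockdown. Why the calls differ was not tested.

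The members, the 47 pathway genes and the marker lists were chosen with earlier results of these data known. Named were all members, pathway genes past the threshold, the 2 highest per kilobase of each role, the 3 of smallest p in each comparison, the 5 genes most like Heyl and up to 3 genes of a marker list, those of highest mean CPM. Kcnj8, Vtn, Higd1b, Cspg4, Pdgfra, Thy1, Ddr2, Cd3e, Pln, Upk3b and Upk1b were named beyond that rule, after their values were seen.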

Additional observations from a re-analysis of the deposited data

Results flagged for a closer look

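Kat2b passed the threshold between the knockdowns in a direct test, as 1 of 37 fitted pathway genes, beside 1.44% of all genes. The pathway list was chosen with earlier results of these data known, so nothing is read from that count. The log2 fold change of Kat2b was -0.33 in Gata4 KD against Tbx20 KD, with an adjusted p of 0.0333 in edgeR's quasi-likelihood test. All 3 Gata4 KD libraries lay below all 3 Tbx20 KD libraries. Against control it was -0.10 in Gata4 KD and 0.24 in Tbx20 KD, neither past the threshold (adjusted p of 0.86 and 1). The call was lost in 5 of the 6 fits that left out a library, with all 9 libraries in 1 fit and with the replicate block, at adjusted p of 0.0578 to 0.171 in edgeR. DESeq2 and the exact test called Psen2, Dtx4 and Rbpj as well.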

How the results depend on the processing

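In Gata4 KD against control, 0 members and 0 pathway genes passed under every alternative that kept all libraries. Leaving out each library in turn gave 0 to 2 members (2 without Gata4 KD c, beside 0.553% of all genes). It gave 0 to 1 pathway genes (Psen2, without control b, beside 1.29% of 14674 genes). In Tbx20 KD against control both counts were 0 under every alternative. In Gata4 KD against Tbx20 KD, the count of members was 0 and became 1 with DESeq2, 1 with no filter and 2 with the exact test, and it was 0 to 3 when each library was left out (3 without Gata4 KD c). The count of pathway genes was 1 and became 4 with DESeq2, 2 with library size alone, 2 with no filter, 2 with the CPM filter, 4 with the exact test and 0 with all 9 libraries in 1 fit, and it was 0 to 4 when each library was left out. The share of all genes called in that comparison was 1.44% in the main test, 5.26% with DESeq2, 5.04% with the exact test, 1.4% with library size alone, 1.44% with no filter, 1.75% with the CPM filter and 5.47% without Gata4 KD c. The cause of these changes was not tested.

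With the replicate letter as a block (the replicate block), 0 members passed in each comparison, and 0 pathway genes passed in Gata4 KD against Tbx20 KD, where Kat2b had an adjusted p of 0.0578 in edgeR. The letters were not taken as pairs, since correlations of same-letter deviations ranged from -0.17 to 0.255. The block moved the count of all genes called from 55 to 5 in Gata4 KD against control, from 1 to 2 in Tbx20 KD against control and from 208 to 101 in the direct comparison. Of 125 refitted member values per comparison, the sign changed in 4, 10 and 1, for Hes1, Notch1, Notch2 and Dll1. Hey1 and Nrarp are limited by depth.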
